A study of Mus musculus with 4 samples.

Results

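The genes described here are the receptors and ligands that decide whether a monocyte becomes an osteoclast, the multinucleated cell that resorbs bone. They were taken by name: the cytokine M-CSF (Csf1) and its receptor (Csf1r), the RANKL receptor RANK (Tnfrsf11a), the RANKL decoy receptor osteoprotegerin (Tnfrsf11b), the alternative RANKL receptor LGR4 (Lgr4), the TNF receptors TNFR1 (Tnfrsf1a) and TNFR2 (Tnfrsf1b), and the calcitonin receptor (Calcr). All 8 were among the 12799 genes with values, and all 8 passed the filter on low values. The study sequenced poly(A) RNA from marrow cells of female mice aged 12 weeks, grown with M-CSF at 30 ng/mL and then with M-CSF at 30 ng/mL and RANKL at 50 ng/mL for 3 days. The 2 control libraries came from Piezo1fl/fl mice (Piezo1f/f in the sample labels), and the 2 knockout libraries from Csf1r-iCre;Piezo1fl/fl mice, so both groups carried the floxed Piezo1 alleles and only the knockouts carried the recombinase. The Cre transgene is named for Csf1r, itself one of the genes described, and because the controls had no Cre its own effects and those of Piezo1 loss cannot be told apart. The libraries are described as biological replicates, with no statement of how many mice each one pools.

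M-CSF binds a receptor tyrosine kinase on monocytes and keeps osteoclast precursors alive and dividing. RANKL then binds RANK, which recruits TRAF6 and starts the osteoclast programme, while osteoprotegerin captures RANKL outside the cell and LGR4 competes with RANK for it. TNF acts through TNFR1 and TNFR2 beside RANK, and the calcitonin receptor, which stops resorption, appears as precursors mature. Osteoprotegerin and much of the M-CSF in marrow are made by stromal and osteoblast lineage cells.

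Values are CPM, read counts scaled by library size, and the libraries held 14122118 to 18897927 reads. Piezo1, which encodes the stretch-activated channel removed in the knockouts, stood at 430 and 384 CPM in the controls and at 61.0 and 56.2 CPM in the knockouts, 14.4% of the control mean (limma adjusted p = 8.23e-05). In the annotation 2441 of its 9935 exonic bases are shared with Ctu2 on the opposite strand, and Ctu2 was at 6.36 to 8.25 CPM. Markers of the labelled lineage were present: all 10 osteoclast markers, which summed to 59839 to 75390 CPM, and 9 of 10 monocyte and macrophage markers were tested. Markers of other cells were present too. Those of stromal, fibroblast and osteoblast cells had 20 of 22 tested and none of these at 0 in any library. Of 8 neutrophil markers 6 were tested, with sums of 46.6 to 85.8 CPM over the 7 with values, and of 5 each for dendritic, endothelial and erythroid cells 2, 2 and 1 were tested. The 5 B cell, 6 T and NK cell and 4 mast cell and basophil markers were not analysed here, which says little about those cells because the filter behind the table is not stated.

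No member passed the test between genotypes. With limma, 0 of the 8 had a Benjamini-Hochberg adjusted p under 0.05, against 0.161% of the 11781 genes tested. On the recovered reads edgeR called 0, against 0.161% of genes, and DESeq2 called 0, against 0.56%. At an unadjusted p under 0.05 there were 2 members with limma (4.9% of all genes tested), 2 with edgeR (4.81%) and 1 with DESeq2 (2.68%). These were Csf1 and Tnfrsf11b, both at lower values in the knockouts, and with DESeq2 Csf1 alone. The groups did not overlap for 3 members with lower knockout values (15.4% of genes tested) and for 2 with higher ones (16.5% of genes tested). The median log2 fold change of the 8 members was −0.10, and that of all genes tested was 0.0016.

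**Figure D1:**
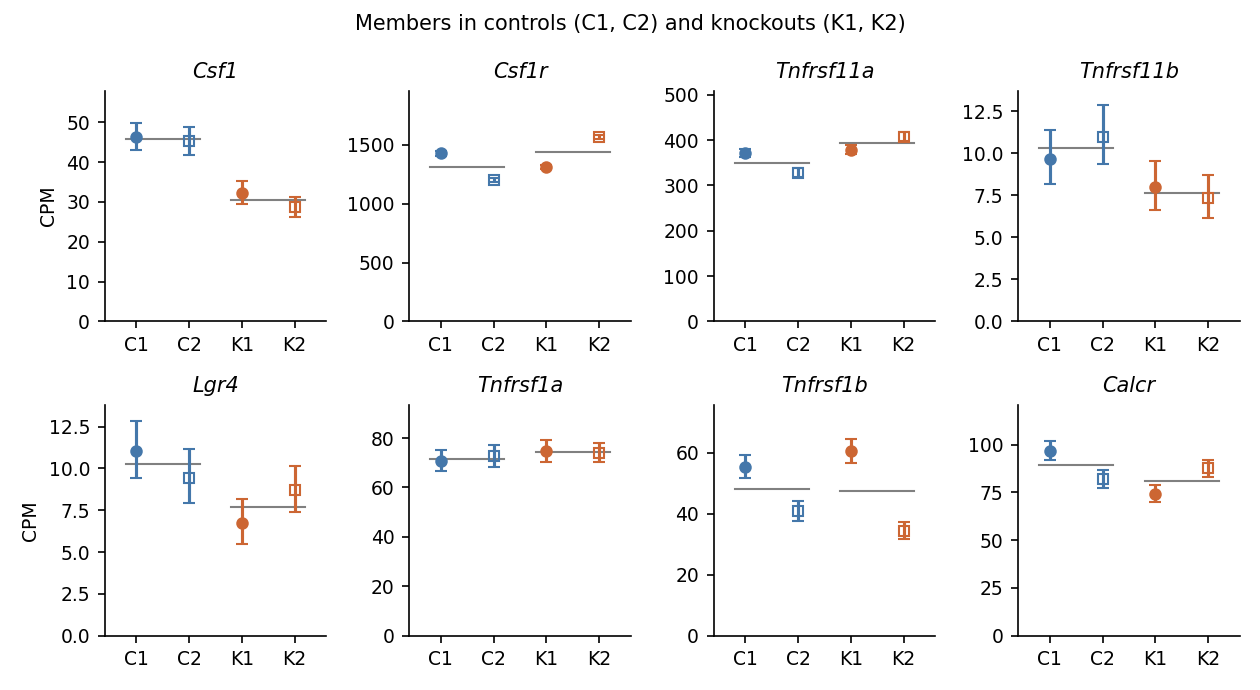
CPM of each member in control libraries C1 and C2 and knockout libraries K1 and K2, with 95% Poisson intervals for counting error and grey lines at the group means. Csf1, Tnfrsf11b and Lgr4 have both knockouts below both controls, and Tnfrsf1b differs more within each genotype than between them.

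Per length, the receptors of the added cytokines were the most abundant members. On the scale of CPM per kb of exon, averaged over the 4 libraries, Csf1r was at 238 ± 27.5 and Tnfrsf11a at 62.1 ± 5.47 (SD, n = 4). Tnfrsf1a followed at 28.2 ± 0.67, Calcr at 21.8 ± 2.42 and Tnfrsf1b at 12.5 ± 3.19. The secreted proteins came lower, with Csf1 at 7.23 ± 1.70 and Tnfrsf11b at 3.19 ± 0.59, and Lgr4 was the least abundant at 1.53 ± 0.30. Each member's lowest library lay above the highest library of the next in this order, so no neighbouring pair overlapped. The order was therefore the same in every library. Its smallest step was 1.30-fold, between Tnfrsf1a and Calcr, and its largest 3.84-fold, between Csf1r and Tnfrsf11a.

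**Figure D2:**
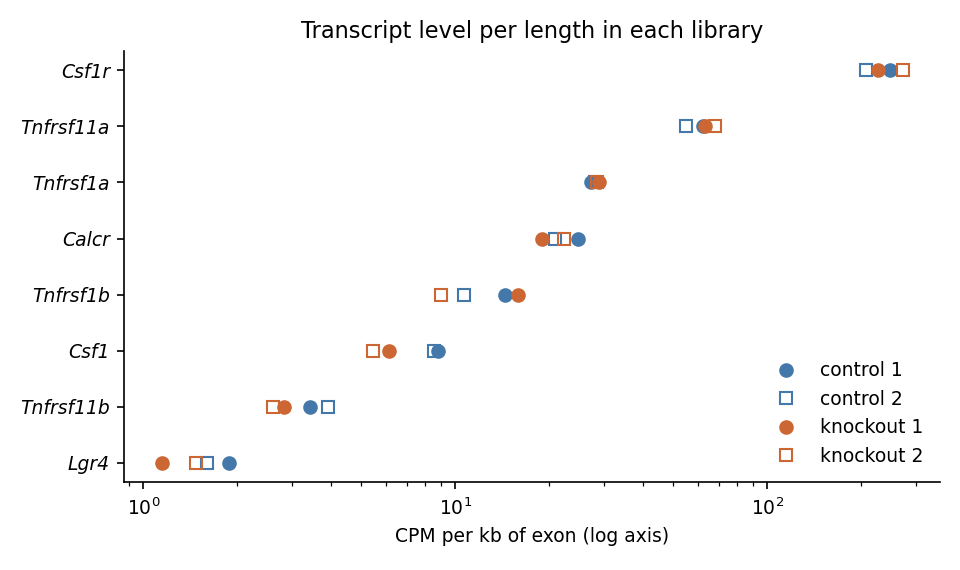
Level of each member in CPM per kb of exon on a log axis, 1 point per library, with genes ordered by their mean. The 8 genes run from about 1.53 for Lgr4 to 238 for Csf1r, and the points of neighbouring genes do not overlap.

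Csf1, the gene of M-CSF, had the smallest p of the 8. It was at 46.4 and 45.3 CPM in the controls and at 32.3 and 28.7 CPM in the knockouts. Both knockouts were low, and the groups were separated by more than the difference between replicates of either genotype. The means were 45.8 ± 0.76 and 30.5 ± 2.52 CPM, which put the knockouts at 66.5% of the controls. On the log2(CPM + 0.5) scale, knockout over control, the difference was −0.58 (SE 0.11, 95% confidence interval −0.84 to −0.32). The limma p was 0.000935 unadjusted and 0.196 adjusted. With edgeR the adjusted p was 0.181 and with DESeq2 0.0700, so the difference did not pass in any of the 3 tools. Csf1 lies on chromosome 3, 107741048 to 107760469 on the minus strand of GRCm38 (ENSMUSG00000014599.10), with 12 exonic blocks and no other annotated gene overlapping it. In these bulk libraries, fewer cells that make a transcript and less transcript per cell cannot be told apart.

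Stromal markers, as a sum, were lower in both knockouts, as Csf1 was. Their summed level was 2392 and 2934 CPM in the controls and 1770 and 1592 CPM in the knockouts, and Col1a1 and Col1a2 made up 50.4% to 53.3% of it. Between the controls the order differed, with the sum higher in control 2 and Csf1 slightly higher in control 1. Of the 20 tested, 16 had a negative log2 fold change, against 49.5% of all genes tested, and the median was −0.50, against 0.0016. Both knockouts lay below both controls for 12 of the 20, against 15.4% of all genes tested. Both lay above for 1, Kitl, against 16.5% of all genes tested. The groups overlapped for the others, among them Pdgfra, Cxcl12 and Dcn. Of the 20, limma and edgeR called 1 as lower, the fibrillin gene Fbn1. Over all genes, limma called 0.119% as lower, and edgeR called 0.161% in either direction. DESeq2 called 9 of the 20, against 0.56% of all genes in either direction. Thy1 and Bglap were not analysed here. Set against that sum, Csf1 stood at 1.94% and 1.54% in the controls, against 1.82% and 1.80% in the knockouts, so the genotypes did not separate on this scale. Without Col1a1 and Col1a2 in the sum the shares were 4.03% and 3.30%, against 3.68% and 3.70%. The part of these cells in the Csf1 values was not tested. The macrophage markers summed to 2538 and 2178 CPM in the controls and 2495 and 2534 CPM in the knockouts, which overlapped. Of the 9 tested, 8 had a positive log2 fold change, with a median of 0.15. Among the 10 osteoclast markers 9 were positive, with a median of 0.13. In both lists limma called 0 genes.

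Among 6461 other tested genes with a mean of 20 CPM or more, the 3 whose centred log2 values over the 4 libraries lay nearest to those of Csf1 were Tnc (Euclidean distance 0.092), Mrc2 (0.12) and Prrx1 (0.13). Tnc, which encodes the matrix protein tenascin-C, was at 167 and 175 CPM in the controls and 118 and 103 CPM in the knockouts. Mrc2, which encodes a collagen-binding endocytic receptor, was at 24.5 and 26.8 against 17.6 and 15.4 CPM, and Prrx1, a transcription factor of mesenchymal cells, at 39.4 and 40.9 against 28.4 and 27.6 CPM. None of the 3 passed with limma, with adjusted p of 0.111, 0.290 and 0.264, or with edgeR (0.132, 0.293 and 0.226). DESeq2 called Tnc (adjusted p = 0.000659, with 0.56% of all genes called) and not Mrc2 or Prrx1 (0.210 and 0.241). With 4 libraries such a likeness is only a description.

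The sequence upstream of the start site is shown for Csf1 and Lgr4, members at lower values in both knockouts, and for Tnfrsf11a, the receptor of the added RANKL, as the contrast. These are the 250 bases before the RefSeq start on GRCm38.p6, 5′ to 3′ on the gene's strand, at chr3:107760470-107760719 (minus), chr2:109917397-109917646 (plus) and chr1:105780473-105780722 (plus), with motif matches in capitals. Windows were searched for 6 of the 8 members, since Csf1r was left out of the search and Tnfrsf11b had no entry.
Csf1: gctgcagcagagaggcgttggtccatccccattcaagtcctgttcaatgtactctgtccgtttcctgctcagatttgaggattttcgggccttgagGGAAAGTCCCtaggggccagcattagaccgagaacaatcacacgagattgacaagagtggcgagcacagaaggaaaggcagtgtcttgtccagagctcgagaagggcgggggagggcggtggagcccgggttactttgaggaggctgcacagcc
Lgr4: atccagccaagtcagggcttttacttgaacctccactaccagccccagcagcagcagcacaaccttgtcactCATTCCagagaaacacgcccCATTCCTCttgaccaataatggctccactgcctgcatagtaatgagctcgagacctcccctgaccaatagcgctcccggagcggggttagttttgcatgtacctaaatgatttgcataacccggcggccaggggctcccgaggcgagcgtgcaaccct
Tnfrsf11a: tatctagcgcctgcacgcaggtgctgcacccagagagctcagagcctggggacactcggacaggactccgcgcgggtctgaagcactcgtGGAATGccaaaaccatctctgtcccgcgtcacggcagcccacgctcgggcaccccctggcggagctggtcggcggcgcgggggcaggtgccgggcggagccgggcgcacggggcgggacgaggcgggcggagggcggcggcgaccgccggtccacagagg
Motifs searched on both strands were those of NF-kB (GGG, any pair of bases, then TTTCC), the YAP and TAZ partner TEAD (GGAATG), PU.1 (GAGGAA), AP-1 (TGANTCA) and the TATA box (TATAAA). The Csf1 window held 1 NF-kB match, from 154 to 145 bases before the start on the reverse strand, a motif found in 1.41% of 32841 such windows. Lgr4 held 2 TEAD matches, where 12.6% of windows held 1 or more, and the second overlaps its 1 PU.1 match (23.3% of windows). Tnfrsf11a held 1 TEAD match. AP-1 and TATA letters, found in 6.75% and 12.4% of windows, were not in these 3. The window of Tnfrsf1b, not shown, also held 2 TEAD matches and 1 PU.1 match, though the expression of that gene overlapped between genotypes. The windows also differed in base composition, with 56.4%, 55.6% and 73.6% G and C for Csf1, Lgr4 and Tnfrsf11a. A match is a string of letters and not a shown binding site, and the motifs were chosen with the expression values known.

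Csf1r, the receptor for M-CSF, was the most abundant member and did not separate by genotype. It was at 1427 and 1201 CPM in the controls and at 1310 and 1570 CPM in the knockouts, so the groups overlapped. The means were 1314 ± 160.1 and 1440 ± 184 CPM, a log2 fold change of 0.13 (SE 0.14, 95% confidence interval −0.20 to 0.46, limma adjusted p = 0.99975), an interval from 0.87-fold to 1.38-fold. With 17158 to 28885 reads per library, counting error was at most 1.499% of the level to either side, well under the 1.19-fold and 1.20-fold differences between the replicates of each genotype. Csf1r lies on chromosome 18, 61100598 to 61132149 (plus strand, GRCm38), and 873 of its 5774 exonic bases are shared with Hmgxb3 on the opposite strand. Whether the counting used strand is not stated in the sources used here. Hmgxb3, a gene for an HMG-box protein, was at 25.5 to 29.1 CPM, far below Csf1r. The tested genes nearest to Csf1r over the 4 libraries were Stard8 (distance 0.016), Fmnl1 (0.030) and Etfdh (0.030), each with overlapping groups.

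No tested intracellular partner of Csf1r passed either. Of 15 genes fixed for M-CSF receptor signalling, 13 were tested, and limma, edgeR and DESeq2 each called 0. Before adjustment 0 had a limma p under 0.05, with a median log2 fold change of 0.03. Both knockouts lay above both controls for 3 of the 13 (16.5% of all genes tested), among them Tyrobp and Ptpn6, and below for 1 (15.4%). The kinase Src, the most abundant, stood at 491 ± 4.62 CPM in controls against 493 ± 63.2 CPM in knockouts, and the phosphatase Ptpn6 at 386 ± 8.004 and 402 ± 3.06 CPM. The smallest p belonged to Tyrobp, the ITAM adaptor DAP12, at 274 ± 1.51 and 309 ± 23.4 CPM, and to the ubiquitin ligase Cbl, at 109 ± 14.3 and 95.6 ± 16.9 CPM. Il34, the other ligand of this receptor, was under the filter, at 0.84 and 0.35 CPM in the controls and 1.39 and 0.38 CPM in the knockouts.

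Tnfrsf11a, the gene of RANK, was at 371 and 328 CPM in the controls and at 379 and 407 CPM in the knockouts. Both knockouts were above both controls, though knockout 1 exceeded control 1 by little. The means were 350 ± 30.5 and 393 ± 20.02 CPM, a log2 fold change of 0.17 (SE 0.10, 95% confidence interval −0.07 to 0.41, limma unadjusted p = 0.137, adjusted p = 0.99975). The interval runs from 0.95-fold to 1.33-fold. Tnfrsf11a lies on chromosome 1, 105780718 to 105847981 (plus strand, GRCm38, 10 exonic blocks). The nearest genes over the 4 libraries were Phtf2, Pigm and Synrg, at distances of 0.018, 0.018 and 0.025. The level of RANK relative to the M-CSF receptor, as a ratio of CPM per kb, was 0.25 and 0.26 in the controls, against 0.28 and 0.25 in the knockouts, and so overlapped (2-sided exact permutation p = 1).

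Tnfrsf11b, the gene of the RANKL decoy osteoprotegerin, was low in these cultures. It was at 9.68 and 10.99 CPM in the controls and at 7.99 and 7.34 CPM in the knockouts, so both knockouts were lower. The means were 10.3 ± 0.93 and 7.66 ± 0.46 CPM, or −0.41 on the log2 scale (SE 0.16, 95% confidence interval −0.79 to −0.03). The limma p was 0.0391 unadjusted and 0.987 adjusted. Only 121 to 157 reads per library stood behind these values, and the widest counting interval reached 18.3% of the level to either side. The intervals of control 1 (8.19 to 11.4 CPM) and knockout 1 (6.63 to 9.54 CPM) overlapped. Those of control 2 (9.34 to 12.8 CPM) and knockout 2 (6.15 to 8.69 CPM) did not. The replicates of each genotype agreed within counting error (exact binomial p = 0.277 in the controls and 0.530 in the knockouts). As a share of the stromal marker sum Tnfrsf11b was at 0.40% and 0.37% in the controls, against 0.45% and 0.46% in the knockouts, so on this scale its knockout values were the higher ones. The part of stromal cells in its values was not tested. Tnfrsf11b lies on chromosome 15, 54250619 to 54278484 (minus strand, GRCm38), with 5 exonic blocks and no overlapping gene.

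Lgr4, the receptor that competes with RANK for RANKL, was at 11.04 and 9.45 CPM in the controls and at 6.73 and 8.70 CPM in the knockouts. Both knockouts were lower, with knockout 2 close to control 2. The means were 10.2 ± 1.12 and 7.71 ± 1.39 CPM, or −0.39 on the log2 scale (SE 0.19, 95% confidence interval −0.83 to 0.04, limma unadjusted p = 0.0701, adjusted p = 0.99975). With 102 to 170 reads per library, counting intervals reached 19.9% of the level to either side, and the intervals of control 2 (7.92 to 11.2 CPM) and knockout 2 (7.40 to 10.2 CPM) overlapped. Such an overlap is not itself a test of a difference between those libraries. Against the stromal marker sum, Lgr4 stood at 0.46% and 0.32% in the controls and at 0.38% and 0.55% in the knockouts, which overlapped, and the part of those cells was not tested. The gene lies on chromosome 2, 109917647 to 110014257 (plus strand, GRCm38), in 20 exonic blocks. The ratio of Tnfrsf11a to Lgr4 in CPM per kb was 33.1 and 34.1 in the controls, against 55.4 and 46.0 in the knockouts. The log2 ratio differed by 0.59 (2-sided exact permutation p = 0.333, the smallest that 2 libraries against 2 can give, and 1 after adjustment over the 3 ratios compared).

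**Figure D3:**
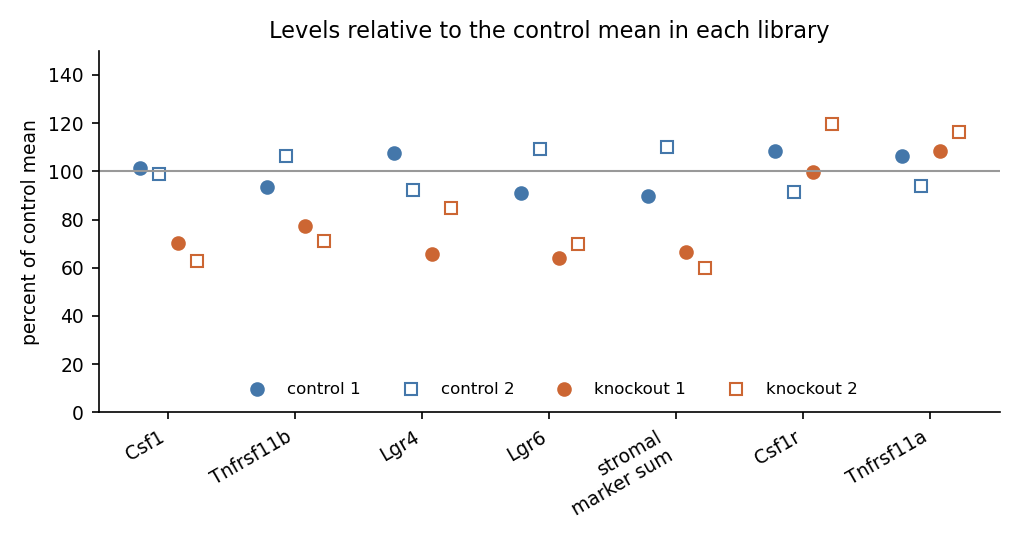
Level in each library as a percent of the control mean, for members, the LGR4 paralog Lgr6 and the sum of the stromal markers, with the line at 100. Csf1, Tnfrsf11b, Lgr4, Lgr6 and the stromal sum have both knockouts under both controls, between 59.8% and 84.9%, while Csf1r and Tnfrsf11a do not.

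The wider RANK and LGR4 list had 16 of 21 genes tested, 0 called with limma, edgeR or DESeq2 and a median log2 fold change of 0.0078. At an unadjusted p under 0.05 there was 1 of the 16 (6.25%, near the 4.9% of all genes), Lgr6, a paralog of Lgr4 that binds R-spondins. It was at 9.55 and 11.5 CPM in the controls and 6.73 and 7.34 CPM in the knockouts (log2 fold change −0.54, limma unadjusted p = 0.0144, adjusted p = 0.781), with both knockouts lower, as for the stromal marker sum. As a share of that sum Lgr6 was at 0.40% and 0.39% in the controls, against 0.38% and 0.46% in the knockouts, which overlapped. The part of stromal cells in the Lgr6 values was not tested. Cyld, a deubiquitinase that restrains RANK signalling, was at 119 ± 1.06 and 138 ± 8.45 CPM (unadjusted p = 0.0521 and adjusted p = 0.99975 with limma). The adaptor Sqstm1, which links TRAF6 to downstream kinases, was at 627 ± 80.2 and 625 ± 9.84 CPM, and Gnaq, the G protein subunit through which LGR4 signals, at 199.6 ± 12.01 and 197 ± 23.6 CPM. Tnfsf11, the gene of RANKL, was not analysed here.

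The TNF receptors differed from each other in how they varied. Tnfrsf1a, which encodes TNFR1 with its death domain, was the steadiest member, at 70.8 and 72.6 CPM in the controls and 74.8 and 74.0 CPM in the knockouts. Both knockouts were slightly higher, with means of 71.7 ± 1.27 and 74.4 ± 0.56 CPM and a log2 fold change of 0.05 (SE 0.09, 95% confidence interval −0.16 to 0.26, limma adjusted p = 0.99975). The Poisson intervals of all 4 libraries overlapped, at 1037 to 1361 reads per library. Tnfrsf1a lies on chromosome 6, 125349362 to 125362484 (plus strand, GRCm38).

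Tnfrsf1b, which encodes TNFR2 (chromosome 4, 145213463 to 145246870, minus strand, GRCm38), had the widest spread between replicates of the 8 in both genotypes. It was at 55.2 and 40.7 CPM in the controls and at 60.5 and 34.4 CPM in the knockouts. Control 1 and knockout 1 were high, control 2 and knockout 2 were low, and the knockout range enclosed the control range. The replicates differed 1.36-fold in the controls and 1.76-fold in the knockouts, more than counting error allows, since the Poisson intervals were 51.6 to 59.04 against 37.5 to 44.2 CPM and 56.7 to 64.6 against 31.8 to 37.2 CPM. The group means were 48.0 ± 10.2 and 47.5 ± 18.5 CPM (log2 fold change −0.05, SE 0.26, 95% confidence interval −0.65 to 0.54, limma adjusted p = 0.99975). Leaving out 1 library turned the direction, from −0.46 without knockout 1 to 0.35 without knockout 2. Of the 9 macrophage markers tested, 7 were also higher in control 1 than in control 2 and in knockout 1 than in knockout 2. The share of all tested genes with this pattern was not counted. Among the 7 were Lyz2 (561 and 344 CPM in the controls, 655 and 360 CPM in the knockouts) and Adgre1 (49.9 and 26.3, then 51.7 and 35.99 CPM). Cd68 (1429 and 1394, then 1279 and 1607 CPM) and Itgam (420 and 346, then 416 and 459 CPM) were higher in knockout 2 than in knockout 1. The dendritic cell marker Itgax had the pattern, at 148 and 84.6 CPM and at 176 and 73.3 CPM, while Zbtb46, at 3.83 and 4.27 CPM and at 5.02 and 4.67 CPM, did not. These genes were picked after their values were seen, and their part in the spread of Tnfrsf1b was not tested. Per kb, Tnfrsf1b stood at 0.53 and 0.38 of Tnfrsf1a in the controls, against 0.55 and 0.32 in the knockouts (2-sided exact permutation p = 1), so TNFR1 transcript was the more abundant in every library.

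Downstream of these receptors, 12 of 14 genes fixed for TNF receptor signalling were tested. The 3 tools each called 0, and 0 had a limma p under 0.05 before adjustment, with a median log2 fold change of 0.04. The initiator caspase Casp8 stood at 211 ± 2.13 CPM in controls against 210.4 ± 17.4 CPM in knockouts, and the kinase Ripk1 at 162 ± 1.31 and 168 ± 1.35 CPM. The feedback inhibitor Tnfaip3 was at 100.3 ± 4.41 and 112 ± 0.30 CPM, and the ubiquitin ligase Birc3 at 84.4 ± 5.63 and 91.5 ± 4.31 CPM, and these had the smallest p of the list (0.124 and 0.267 unadjusted, 0.99975 adjusted with limma).

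Calcr, the calcitonin receptor and a late marker of the lineage, was at 96.7 and 82.0 CPM in the controls and at 74.2 and 87.5 CPM in the knockouts. The groups overlapped, with knockout 2 between the controls. The means were 89.3 ± 10.4 and 80.8 ± 9.43 CPM, with a log2 fold change of −0.14 (SE 0.12, 95% confidence interval −0.43 to 0.15, limma adjusted p = 0.99975), an interval from 0.74-fold to 1.11-fold. Replicates differed by 1.18-fold in each genotype, beyond counting error at 1124 to 1610 reads. Calcr lies on chromosome 6, 3685680 to 3764714 (minus strand, GRCm38), and encloses 2 microRNA genes, Mir653 and Mir489, which share none of its exonic bases. Of 15 genes of the calcitonin receptor system 9 were tested. The 3 tools each called 0, and 0 had a limma p under 0.05 before adjustment, with a median log2 fold change of −0.0036. Calcrl, the paralog that forms receptors for CGRP and adrenomedullin, was at 92.7 ± 23.2 and 91.9 ± 17.3 CPM. The adenylyl cyclase Adcy3 was at 424 ± 45.7 and 474 ± 39.6 CPM and the arrestin Arrb1 at 164 ± 15.3 and 179.9 ± 7.94 CPM. Adm, which encodes adrenomedullin, and Adcy6 had the smallest p of the list (0.159 and 0.166 unadjusted with limma), at 1.73 ± 0.43 against 1.14 ± 0.07 CPM and 7.43 ± 0.58 against 5.67 ± 2.34 CPM.

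**Figure D4:**
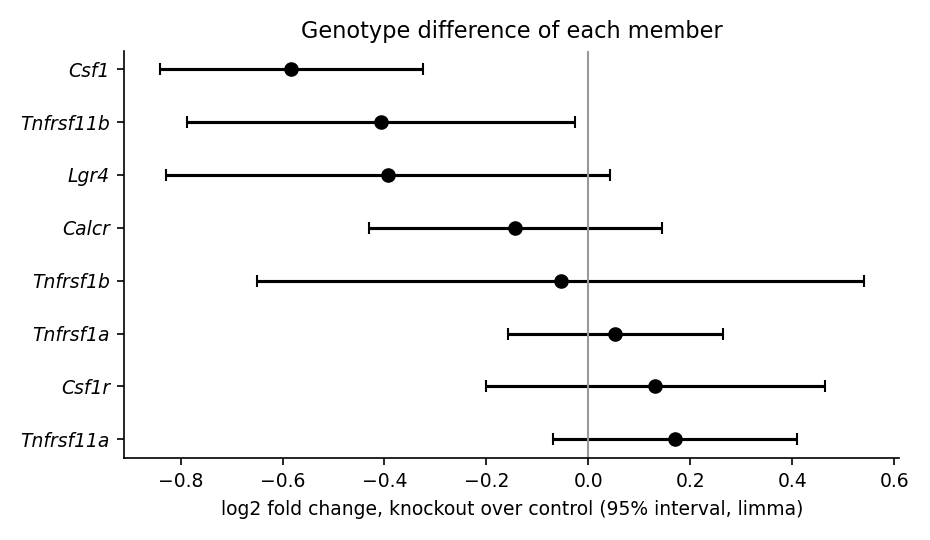
Log2 fold change of each member, knockout over control, with limma's 95% confidence interval, and a line at 0. The intervals of Csf1 (−0.84 to −0.32) and Tnfrsf11b (−0.79 to −0.03) lie below 0, and the other 6 cross it.

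Membrane-bound M-CSF, its receptor and the TNF receptors are released from the cell by proteases, chiefly ADAM17, which TIMP3 inhibits. All 12 genes fixed for this shedding were tested, and 1 fell and 0 rose (limma, edgeR and DESeq2 each called the same gene, Timp3). Over all genes tested, limma called 0.119% as lower. Timp3 was at 88.6 and 97.7 CPM in the controls and at 38.8 and 33.4 CPM in the knockouts, a log2 fold change of −1.36 (limma adjusted p = 0.00883), and both knockouts were lower. The call was lost without an intensity trend (adjusted p = 0.147) and without control 2 (adjusted p = 0.0877), both with limma. As a share of the stromal marker sum Timp3 was at 3.71% and 3.33% in the controls, against 2.19% and 2.10% in the knockouts. Both knockouts were lower on that scale too, and the part of stromal cells in the Timp3 values was not tested. Adam17 itself stood at 120.4 ± 13.9 CPM in controls against 141 ± 1.40 CPM in knockouts, with both knockouts higher and a limma unadjusted p of 0.0634 (adjusted p = 0.99975). Adam10 was at 192 ± 18.1 and 190.4 ± 3.81 CPM. Adam17 and Adam10 were named after their values were seen. Over the 12 genes the median log2 fold change was 0.0075, beside 0.0016 for all genes tested.

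Across the 7 pathway lists, 93 of 120 genes were tested and 1 was called (1.08%, against 0.161% of all genes), with 3 at an unadjusted p under 0.05 (3.23%, against 4.9%).

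**Figure D5:**
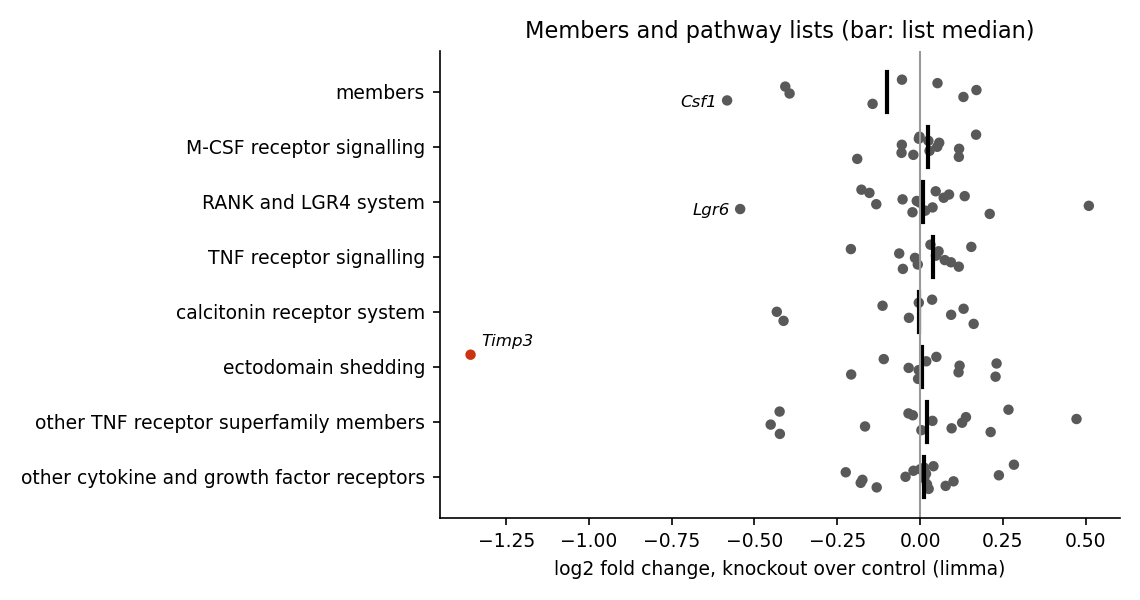
Log2 fold change, knockout over control, of every tested gene in the members and in the 7 pathway lists, with a bar at each list's median and genes with an adjusted p under 0.05 in red. Timp3 at −1.36 is the only red point, and the list medians lie between −0.10 and 0.04.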

How the data were processed

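Poly(A) RNA was sequenced from 4 libraries, 2 per genotype, all with batch value 1 in the labels. Per the submitters' processing notes, STAR, featureCounts from Subread, edgeR and the build mm10 (GRCm38) were used, with no versions. Their annotation release, strand setting and gene filter are not stated in the sources used here. The authors deposited a normalised signal per gene and library. Dividing each column by its lowest value above 0 gave whole reads (100% of values within 0.001 reads), and CPM from these reads with edgeR's TMM scaling matched the deposited signal to within 4.8e-08 CPM. Every pair of libraries differed beyond sampling noise. The chi-square of the reads per gene was 11.5 between the controls and 23.2 between the knockouts. Across genotypes it was 12.5 to 21.7, so replicates could differ as much as genotypes.

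Genotypes were compared on log2(CPM + 0.5) by limma (2-sided, intensity trend, no other covariate) over the 11781 genes that reached 1 CPM in 2 or more libraries, adjusted by Benjamini-Hochberg over all these genes. A fold change on this scale understates that of low genes. Log2 fold changes are knockout over control. The limma p-values set the genotype difference against an estimate of the spread between replicate libraries. That estimate is largely borrowed from other genes (5.52 of 7.52 degrees of freedom). edgeR's quasi-likelihood test and DESeq2 were run on the recovered reads. Poisson intervals cover counting error only. Exonic lengths and positions came from GENCODE M21 on GRCm38, where 12699 of 12799 symbols were found, and upstream sequences from RefSeq (GRCm38.p6). The members and lists were chosen with earlier results of these data known, so no p was adjusted over a list alone. Of each pathway list, genes that passed were named, or otherwise the 2 with the smallest p and the 2 with the highest mean. The comparison with the stromal sum was chosen after the values were seen. The steps were tested on simulated reads. Tests ran in R 4.3.3 with DESeq2 1.42.0, edgeR 4.0.16 and limma 3.58.1, and summaries in Python 3.11.15 with pandas 2.3.3, SciPy 1.17.1 and NumPy 2.4.6.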

Additional observations from a re-analysis of the deposited data

How the results depend on the processing

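No member was called under any of the 17 alternatives (other pseudocounts, filters, scalings and variance models, edgeR, DESeq2, the replicate block and each library left out), and 7 of the 8 kept their direction in all of them. The exception was Tnfrsf1b, which ranged from −0.46 to 0.35 with 1 library left out (−0.05 with all) and was positive without control 1 (0.16) or knockout 2 (0.35). The other filters, the variance models and the replicate block leave each log2 fold change as it was, so they could not turn a direction. Csf1r kept its direction only narrowly, at 0.0067 without control 2 and 0.00035 without knockout 2. Csf1 ranged from −0.67 to −0.50 with adjusted p from 0.0539 to 0.857. The 19 genes called overall (5 higher, 14 lower) became 66 with DESeq2 (10 and 56), 4 without an intensity trend (2 and 2) and 7 to 76 with 1 library left out (2 to 16 higher, 4 to 60 lower): without a control library 7 (the first) or 8 (the second), and 76 or 61 without the first or second knockout library. The cause was not tested. The 1 pathway gene called, Timp3, was lost without the intensity trend and without control 2 (0 called in each, and 0 to 1 over the libraries left out). With the replicate number as a block, 89 genes were called (18 higher, 71 lower), Csf1 had an adjusted p of 0.0539, and same-numbered libraries did not deviate together (r = −0.0016 across genes). With 1 library left out, the log2 ratio difference of Tnfrsf1b to Tnfrsf1a ranged from −0.51 to 0.29 (−0.11 with all), that of Tnfrsf11a to Csf1r from −0.039 to 0.12 (0.04 with all) and that of Tnfrsf11a to Lgr4 from 0.45 to 0.72. Depth limits Tnfrsf11b and Lgr4, whose highest libraries had 157 and 170 reads.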

Other observations

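Other receptors of the TNF superfamily were mostly low in these cells. Of 24 fixed, 14 were tested. The 3 tools (limma, edgeR and DESeq2) each called 0, with a median log2 fold change of 0.02. Before adjustment 1 of the 14 had a limma p under 0.05, against 4.9% of all genes tested. That gene was Tnfrsf21, which encodes death receptor 6, at 6.88 and 6.86 CPM in the controls and 9.57 and 9.89 CPM in the knockouts (log2 fold change 0.47, limma unadjusted p = 0.0188, adjusted p = 0.854), with both knockouts higher. Tnfrsf12a, the receptor for TWEAK, was at 8.64 and 8.96 CPM in the controls and 7.59 and 5.22 CPM in the knockouts (adjusted p = 0.99975 with limma). The lymphotoxin beta receptor Ltbr was the most abundant, at 61.4 ± 0.01 and 61.6 ± 2.25 CPM, followed by Tnfrsf9, which encodes 4-1BB, at 40.0 ± 0.45 and 48.6 ± 8.45 CPM.

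Of 19 receptors for other cytokines and growth factors, 17 were tested. The 3 tools each called 0, and 0 had a limma p under 0.05 before adjustment, with a median log2 fold change of 0.01. The TGF-beta receptor genes were the most abundant, Tgfbr1 at 913 ± 57.9 CPM in controls against 941 ± 103 CPM in knockouts and Tgfbr2 at 598 ± 100.8 and 733 ± 175.5 CPM. The latter and Csf2ra, the alpha chain of the GM-CSF receptor, at 189.7 ± 3.90 and 173 ± 3.001 CPM, had the smallest p of the list (0.159 and 0.169 unadjusted, 0.99975 adjusted with limma).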
